A study of Mus musculus with 10 samples.

Results

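The DNA replication machinery and the E2F transcription factors that control it were examined as a set of 46 genes, chosen by symbol from the 18586 rows of the expression table, and all 46 were found there. The cultures were primary epithelial cells of mouse tongue, isolated 15 days after transgene induction, sorted for GFP and grown in medium with doxycycline. Both genotypes carried Krt14-CreERT, LSL-rtTA and tetON_H2B-GFP, so that a Cre active in keratin 14-positive basal cells switched on the reverse tetracycline transactivator and, with doxycycline, the H2B-GFP reporter. EY cells also carried tetON_E6-E7, the papillomavirus oncogenes, and tetON_YAP1S127A, a constitutively active YAP allele, whereas N cells, from adult littermates, carried neither. EY was represented by 6 libraries from 3 culture lines (EY3960, EY4028 and EY4174, 2 libraries each) and N by 4 libraries from 1 line (N4172). Genotype and line therefore cannot be told apart for N. By their shared line number, libraries of a line were not taken as separate animals. The paper counts them as 4 N and 6 EY biological replicates. Read this way, p-values measure the spread between these cultures and libraries only.

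DNA replication starts when the origin recognition complex, CDC6 and CDT1 load the MCM helicase onto chromatin, a step called licensing. The helicase is then activated with CDC45 and the GINS complex, primase and polymerase alpha lay down primers, and polymerases delta and epsilon extend them with the sliding clamp PCNA. Many of these genes are transcribed under E2F factors, which the retinoblastoma protein RB holds inactive until cyclin-dependent kinases phosphorylate it, and the papillomavirus E7 protein is known for binding RB. The comparison of EY with N asks whether the transcripts of this machinery differed between the oncogene-bearing and the reporter-only cultures.

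Promoter sequences are shown first for 4 members, to set members with and without E2F letters near the start site side by side. Windows of 300 bases, from 250 before to 50 after each RefSeq start site (GRCm38.p6), were given for 38 of the 46 members. Capitals mark the E2F letters TTTCCCGC, TTTGGCGC, TTTCGCGC or TTTGCCGC and the letters CCAAT, each on either strand. Mcm6 held the most E2F matches of any member and Mcm5 a pair of overlapping ones. Pold2 and Tk1, the members with an adjusted p under 0.01 between genotypes, held none. A second window of Pold2, not shown, was also without them.
Mcm6, chr1:128359656-128359955, minus strand: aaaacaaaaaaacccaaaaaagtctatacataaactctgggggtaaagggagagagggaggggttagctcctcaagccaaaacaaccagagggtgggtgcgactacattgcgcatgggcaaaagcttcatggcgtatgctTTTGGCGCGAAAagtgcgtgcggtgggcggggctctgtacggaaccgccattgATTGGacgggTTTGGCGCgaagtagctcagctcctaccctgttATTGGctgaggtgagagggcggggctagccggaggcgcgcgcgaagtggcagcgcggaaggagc
Mcm5, chr8:75109259-75109558, plus strand: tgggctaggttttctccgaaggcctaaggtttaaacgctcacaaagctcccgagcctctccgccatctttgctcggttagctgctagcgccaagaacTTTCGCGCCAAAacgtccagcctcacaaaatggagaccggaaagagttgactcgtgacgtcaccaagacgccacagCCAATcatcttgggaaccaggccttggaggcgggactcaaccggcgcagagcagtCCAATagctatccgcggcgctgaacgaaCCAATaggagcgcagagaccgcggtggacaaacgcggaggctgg
Pold2, chr11:5878207-5878506, minus strand: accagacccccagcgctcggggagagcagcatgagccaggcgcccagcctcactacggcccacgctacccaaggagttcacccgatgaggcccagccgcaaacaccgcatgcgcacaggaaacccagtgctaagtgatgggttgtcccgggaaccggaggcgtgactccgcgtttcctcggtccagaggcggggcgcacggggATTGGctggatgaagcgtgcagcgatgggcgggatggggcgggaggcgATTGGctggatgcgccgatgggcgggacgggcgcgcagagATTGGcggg
Tk1, chr11:117825965-117826264, minus strand: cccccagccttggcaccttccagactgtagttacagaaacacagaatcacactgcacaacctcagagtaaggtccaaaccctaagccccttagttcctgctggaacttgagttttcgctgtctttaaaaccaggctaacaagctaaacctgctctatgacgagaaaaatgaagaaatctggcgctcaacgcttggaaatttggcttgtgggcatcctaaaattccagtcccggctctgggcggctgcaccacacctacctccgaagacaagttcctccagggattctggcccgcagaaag

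The E2F letters stood in 15 of the 45 member windows (33.3%) and in 2.26% of the 32851 windows of all genes. They were found in Mcm3, Mcm5, Mcm6, Mcm7, Gins3, Orc1, Cdc6, Cdt1, Pola1, Pold1, Rfc3, Lig1, E2f2, E2f3 and E2f7. CCAAT, read by the NF-Y factor, stood in 27 of the 45 member windows and in 37.4% of all windows. TTTGAA or TTCGAA, the letters of the cell cycle homology region of mitotic promoters, stood in 22.2% and 19.2%. Member windows were richer in G and C (median 61.3% against 52.7%). A match describes letters only, and a window without one says nothing of binding elsewhere.

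The libraries were keratinocyte cultures by their markers. All 8 basal keratinocyte markers, among them Krt5, Krt14 and Trp63, were present, with a summed level of 4291 to 7246 TPM in EY and 5284 to 5973 TPM in N, while the fibroblast, endothelial and skeletal muscle markers in the table were below 1 TPM in every library. Suprabasal markers summed to 479 to 909 TPM in EY and 437 to 618 TPM in N, and among them Krt13 ran from 3.55 TPM in EY4174 to 72.5 TPM in EY3960, with 44.8 to 88.6 TPM in N. Of 7 immune cell markers 2 were listed, Ptprc below 1 TPM in all libraries and Cd68 at 29.3 to 71.8 TPM in EY and 42.1 to 68.7 TPM in N. Of 4 melanocyte markers only Mlana reached 1 TPM, at 0.665 to 2.88 TPM in N and at most 0.548 TPM in EY. Of 6 granulocyte markers, 5 were listed and 4 reached 1 TPM, and their sum was 17.2 to 81.7 TPM in EY and 1.80 to 10.3 TPM in N. S100a8 and S100a9 made up most of that sum, each with all EY libraries above all N libraries (differences of 2.52 and 2.88 on log2(TPM + 1)), Ly6g and Cxcr2 reached at most 1.26 and 1.14 TPM, Csf3r stayed below 1 TPM in all libraries and Mpo had no row. The part of these other transcripts in the results was not tested. Between 10852 and 11522 genes reached 1 TPM in a library, and mitochondrial transcripts took 14.1% to 20.5% of TPM.

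Transcripts of the replication machinery were abundant in both genotypes. TPM divides the reads of a gene by its transcript length and scales each library to a common sum, so levels of different genes can be set side by side. The 46 members summed to 2753 to 2870 TPM in the EY libraries and 2623 to 2885 TPM in the N libraries, ranges that overlapped. Of the members, 45 reached 1 TPM in every library and 36 were above 10 TPM in every library. Pcna was the most abundant and E2f2 the least, and E2f2 was left out of the tests for its low level. In a bulk measurement, fewer cells in S phase and less RNA per cell cannot be told apart.

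**Figure D1:**
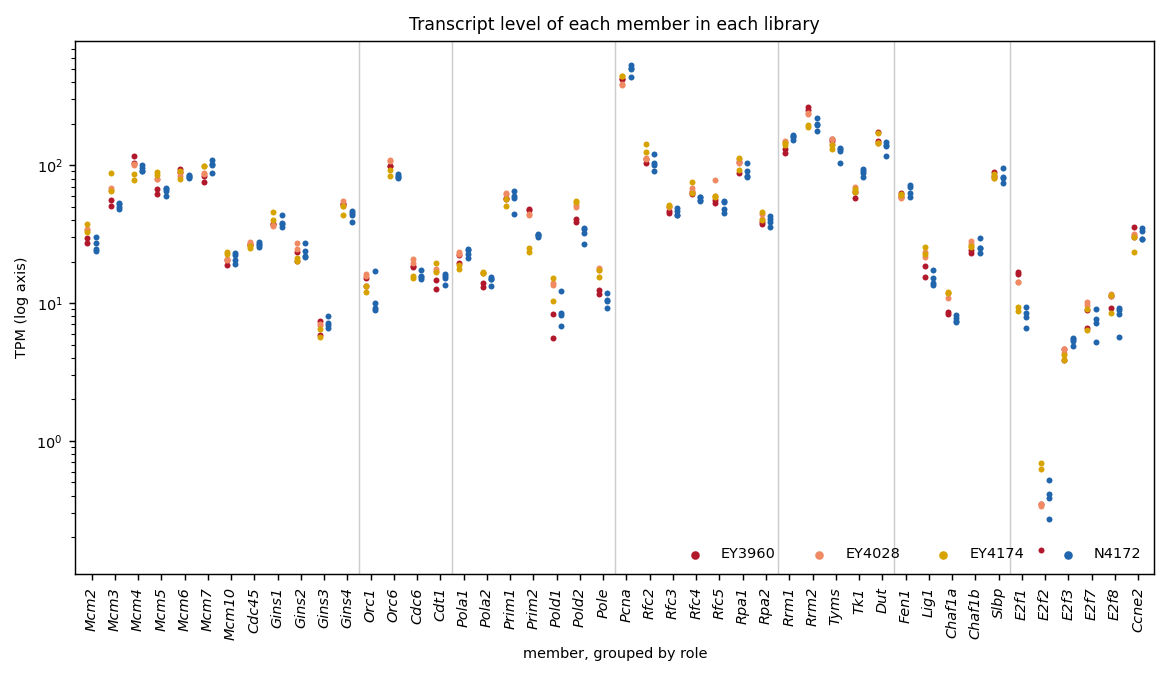
TPM of each of the 46 members (log axis) in each library, grouped by role, with EY libraries left and N libraries right of each position and colours for the 4 culture lines. The EY and N points of most members lie at the same height, Pcna is highest at 383 to 533 TPM and E2f2 is the only member below 1 TPM.

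No member passed the study's thresholds for a changed gene (adjusted p under 0.01 and more than 1 on the log2 scale) between EY and N. Differences are EY minus N in log2(TPM + 1), which understates changes of low genes, and adjusted p-values are from limma with Benjamini-Hochberg adjustment over all 11630 genes tested. At these thresholds 0 of the 45 members tested were called, against 3.55% of all genes. On the adjusted p alone, 1 member was higher in EY (Pold2, background 6.84%) and 1 was lower (Tk1, background 5%). At an unadjusted p under 0.05 there were 19 members (42.2%), 15 higher and 4 lower in EY, against 37.5% of all genes, which is near the background. The count of 0 called members held in all 25 alternative settings. Some of these called few genes at all, 2 of 11630 with line means and 147 of 11630 with a pseudocount of 5. The 2 members past the adjusted p became 0 with line as a random block or line means. There 248 and 2 of 11630 genes passed. The count was 1 without EY4028 replicate 1 or 2 or N4172 replicate 1, 2 or 3. It was 4 without EY3960 replicate 1 or N4172 replicate 4. Of all genes, 690 to 1051 passed in these fits where the count was 1, and 1312 and 1397 where it was 4.

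The differences were small and leaned towards EY. Their median was 0.17 over the members and 0.03 over all genes tested, and 33 of 45 members were higher in EY, as were 6276 of all 11630 genes. The range ran from -0.46 for Tk1 to 0.63 for E2f1, with 42 of 45 members (93.3%) within 0.5 either way against 80.7% of all genes. The 95% interval of the difference lay within 1 either way for 44 members (97.8%, against 84.3% of all genes), the exception being E2f1 with an upper bound of 1.03. For those 44, a difference of 1 on this scale lay outside the interval. The intervals treat libraries of a line as independent and N is 1 line, so they can be too narrow for a statement on genotype. Of all genes, 1377 passed the adjusted p in this fit and 248 with line as a random block. The median standard error was 0.10 for members and 0.13 for all genes. The median difference was 0.09 without line EY4028.

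**Figure D2:**
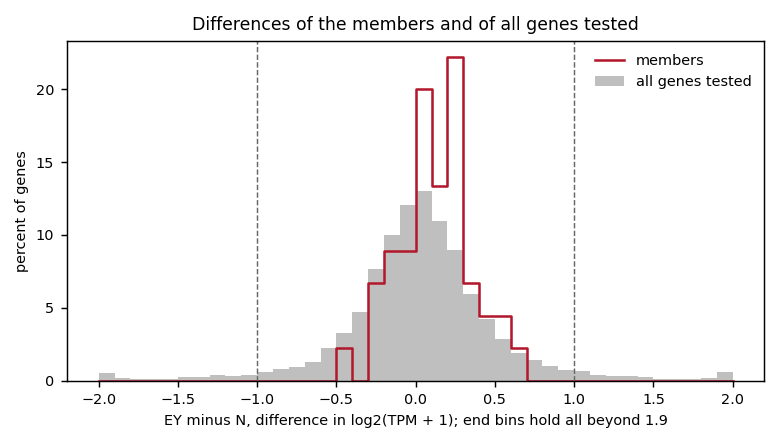
Percent of genes (vertical axis) by EY minus N difference in log2(TPM + 1) in bins of 0.1 (horizontal axis), for all 11630 genes tested (grey bars) and the 45 members (red line), with dashed lines at the threshold of 1. The members lie between -0.46 and 0.63, inside both dashed lines, around a median of 0.17.

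No member of the MCM helicase or its activators passed the adjusted p between the genotypes. MCM2 to MCM7 form the ring that unwinds the template, and Mcm2 had the smallest adjusted p of the group. Its level was 27.1 and 29.8 TPM in EY3960, 34.0 and 34.5 in EY4028, 37.5 and 32.9 in EY4174, and 29.9, 24.0, 27.4 and 24.7 TPM in N replicates 1 to 4. EY3960 lay among the N libraries and the other EY lines above them, and the difference of 0.29 ± 0.10 (SE) did not pass (adjusted p = 0.058). Mcm3 averaged 65.4 TPM in EY and 50.5 in N (0.35, adjusted p = 0.062), and Mcm5 76.9 and 65.2 TPM (0.23, adjusted p = 0.13).

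The remaining ring subunits had overlapping ranges too. Mcm4 was at 97.7 ± 13.7 TPM (SD, n = 6) in EY and 94.2 ± 4.4 (n = 4) in N, Mcm6 at 87.6 ± 5.2 and 82.6 ± 1.4, and Mcm7 at 88.3 ± 8.7 and 99.6 ± 9.1. Mcm10, which helps to activate the loaded helicase, stood at 21.2 TPM in each genotype, and Cdc45, which travels with the helicase, at 26.4 and 26.5 TPM. GINS, a cofactor of the helicase, has 4 subunits. Gins1 averaged 39.0 TPM in EY and 38.6 in N, Gins2 22.8 and 23.7, Gins3 6.57 and 7.20, and Gins4 50.6 and 43.2. Gins4 had the widest GINS difference, 0.22 (adjusted p = 0.068). Over the 12 helicase members the median difference was 0.03, with 7 higher (58.3%, against 54.0% of all genes). At an unadjusted p under 0.05 there were 4 (33.3%, against 37.5% of all genes).

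All 4 licensing members had higher means in EY, where 54.0% of all genes were higher, and none passed the adjusted p. Orc6, a subunit of the origin recognition complex, was at 98.1 and 97.9 TPM in EY3960, 107 and 108 in EY4028, 92.3 and 83.8 in EY4174, and 81.2, 82.2, 86.4 and 83.9 TPM in N. The 4 libraries of EY3960 and EY4028 lay above every N library, and 1 of those of EY4174 lay in the N range, with a difference of 0.22 ± 0.08 (adjusted p = 0.056). Orc1, the ATP-binding subunit of the complex, averaged 14.2 TPM in EY and 11.3 in N. Its N values were uneven, at 8.89, 9.25 and 10.02 TPM in replicates 1 to 3 and 17.0 in replicate 4, above all EY libraries. Cdc6, the helicase loader, averaged 18.0 TPM in EY and 15.9 in N, and its partner Cdt1 16.4 and 15.1 TPM.

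The polymerases held the one member that was higher in EY on the adjusted p. Pold2, the accessory subunit of polymerase delta, was at 38.8 and 41.0 TPM in EY3960, 51.8 and 49.6 in EY4028, 55.0 and 53.8 in EY4174, and 32.5, 27.0, 35.0 and 34.3 TPM in N. Every EY library was above every N library, and the difference was 0.57 ± 0.12 (adjusted p = 0.0048, 1.503-fold in mean TPM). This was lost in 11 of 25 alternatives, among them a block on sample numbers and the fit without line EY4028. It did not pass without EY4028 replicate 1 (adjusted p = 0.012), EY4028 replicate 2 (0.012), N4172 replicate 1 (0.017), replicate 2 (0.021) or replicate 3 (0.012), nor with line as a random block (0.077), line means (0.43) or GC and length trends removed (0.012, difference 0.38). Its window above holds CCAAT letters 3 times and no E2F letters.

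Pole, the catalytic subunit of polymerase epsilon on the leading strand, averaged 15.4 ± 2.7 TPM in EY and 10.5 ± 1.0 in N, a difference of 0.50 (adjusted p = 0.019), and its ranges overlapped through EY3960 only. Pold1, the catalytic subunit of polymerase delta, was uneven, from 5.58 to 15.1 TPM in EY and 6.81 to 12.3 in N, and had the largest standard error of any member (0.25). The polymerase alpha and primase complex, which makes the primers, showed no shared direction. Pola1 averaged 20.8 TPM in EY and 23.3 in N, Pola2 15.6 and 14.7, Prim1 58.0 and 56.6, and Prim2 38.5 and 31.0. The spread of Prim2 within EY is described with the lines.

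Pcna was lower in EY by 0.25 ± 0.08 without passing the threshold (adjusted p = 0.031). It stood at 420 and 421 TPM in EY3960, 385 and 383 in EY4028, 445 and 440 in EY4174, and 511, 499, 533 and 436 TPM in N. N replicate 4 was the only N library within the EY range, and without it the difference was -0.31 (adjusted p = 0.0081). The 4 members that belong to the clamp loader, replication factor C, had higher means in EY, whereas its large subunit Rfc1, which is not a member, averaged 30.5 TPM in EY and 33.1 in N. Rfc4 was at 61.8 to 75.5 TPM in EY and 55.2 to 58.5 in N, without overlap, a difference of 0.21 (adjusted p = 0.048). Rfc5 averaged 60.7 TPM in EY and 50.4 in N (difference 0.26, adjusted p = 0.096), Rfc2 118 and 104, and Rfc3 48.9 and 45.6. The single-strand binding proteins Rpa1 and Rpa2 averaged 102 and 41.3 TPM in EY and 89.6 and 39.3 in N.

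Among the nucleotide enzymes, Tk1 was the member lower in EY on the adjusted p. Tk1, the salvage enzyme thymidine kinase, was at 57.4 and 63.9 TPM in EY3960, 69.8 and 64.8 in EY4028, 63.9 and 67.0 in EY4174, and 87.4, 82.6, 94.5 and 90.3 TPM in N. The EY and N libraries did not overlap, and the difference was -0.46 ± 0.07 (adjusted p = 0.00090, a ratio of mean TPM of 0.727). It passed in 22 of 25 alternatives, and the other 3 were line as a random block (adjusted p = 0.041), line means (0.39, where N is a single value) and a block on sample numbers (0.037, N4172 replicates 3 and 4 left out).

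The ribonucleotide reductase subunits, which make deoxynucleotides, differed in direction. Rrm1 was at 122 to 149 TPM in EY and 152 to 167 in N, without overlap, a difference of -0.21 (adjusted p = 0.052). Rrm2, the regulated subunit, averaged 229 ± 31 TPM in EY and 197 ± 17 in N, a difference of 0.21 (adjusted p = 0.17). Tyms, which makes thymidylate by the other route, averaged 146 and 123 TPM (0.24, adjusted p = 0.052), and Dut, which clears dUTP, 155 and 136 (0.19, adjusted p = 0.13).

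Of the genes for joining and packaging the new strands, Lig1, the ligase that seals nicks, had the smallest adjusted p. It was at 15.4 and 18.6 TPM in EY3960, 21.7 and 23.3 in EY4028, 22.8 and 25.6 in EY4174, and 15.1, 13.6, 13.99 and 17.4 TPM in N. EY3960 overlapped N and the other EY lines did not, with a difference of 0.46 ± 0.13 (adjusted p = 0.026). Chaf1a, the large subunit of chromatin assembly factor 1, was at 8.34 to 12.0 TPM in EY and 7.31 to 8.16 in N, without overlap (0.40, adjusted p = 0.027), whereas its partner Chaf1b averaged 25.6 and 25.7 TPM. Fen1, the flap nuclease, averaged 60.3 TPM in EY and 66.1 in N, and Slbp, the histone mRNA binding protein, 83.6 and 83.2.

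The E2F factors themselves ranged in level from under 1 TPM to 16.9 TPM. E2f1, an activator held by RB, was at 16.2 and 16.9 TPM in EY3960, 14.3 and 14.1 in EY4028, 8.78 and 9.43 in EY4174, and 9.38, 7.86, 8.46 and 6.56 TPM in N. The first 2 lines lay well above N and EY4174 within or just above its range, giving a difference of 0.63 ± 0.18 (adjusted p = 0.027, 95% interval 0.23 to 1.03). E2f2, also an activator, was at 0.162 to 0.688 TPM in EY and 0.272 to 0.524 in N. E2f3, the third activator, was lower in all EY libraries, at 3.86 to 4.68 TPM against 4.85 to 5.57 (-0.26, adjusted p = 0.070). The repressors E2f7 and E2f8 averaged 8.49 and 10.6 TPM in EY and 7.28 and 8.05 in N (0.20, adjusted p = 0.41, and 0.37, adjusted p = 0.074). Ccne2, the cyclin E2 that starts S phase, averaged 30.4 and 31.6 TPM.

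**Figure D3:**
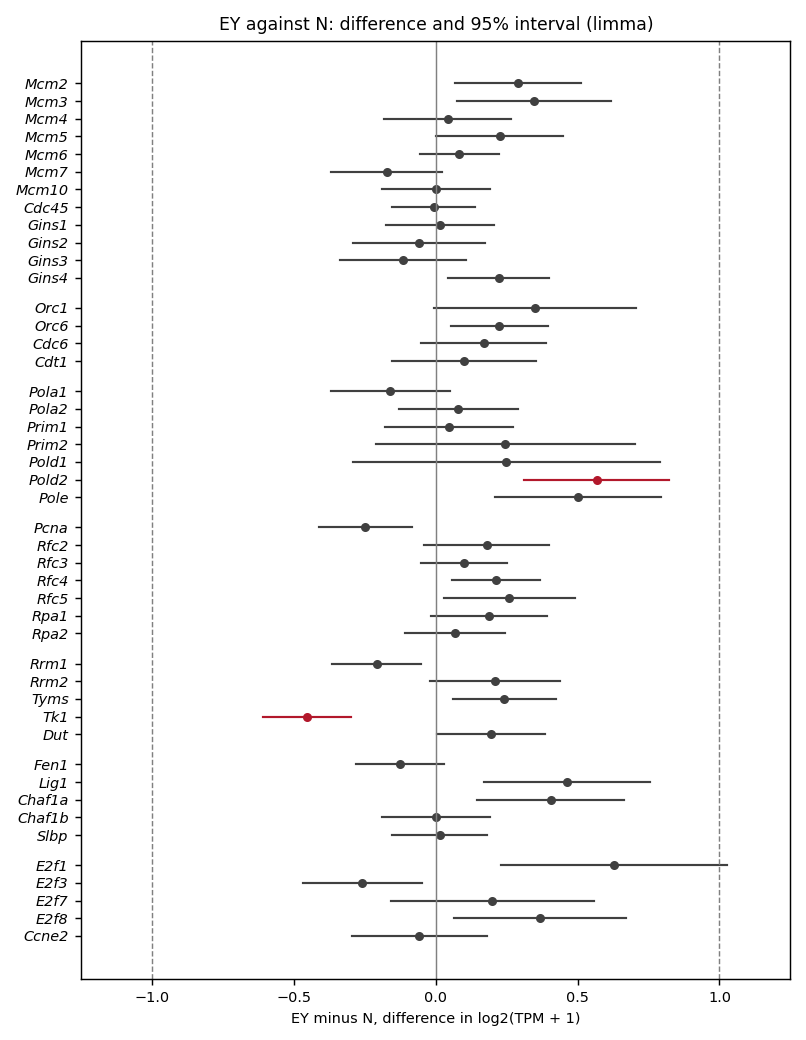
EY minus N difference in log2(TPM + 1) of the 45 tested members with its 95% interval from limma, ordered by role, with dashed lines at 1 either way and the members with an adjusted p under 0.01 in red. Pold2 at 0.57 and Tk1 at -0.46 are the red members, and only the interval of E2f1 reaches past a dashed line.

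Counting libraries without a model, 3 members had all EY above all N libraries (Pold2, Rfc4 and Chaf1a, background 11.3%) and 3 had all EY below all N (Rrm1, Tk1 and E2f3, background 9.1%). Both shares (6.67%) were below those of all genes, but each rests on 3 members, too few to set the members apart. The 14 tested members with E2F letters in a window had a median difference of 0.13 and the 23 with windows but no match 0.19, with ranges that overlapped (-0.26 to 0.46 and -0.46 to 0.63).

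Each EY line was then set against N on its own, in a fit over the 4 lines. The p-values of this fit, and of the comparison between the EY lines, measure only the spread between libraries of the same line. No member passed both thresholds in any line, where the background was 7.04% in EY3960, 5.74% in EY4028 and 4.95% in EY4174. The members past the adjusted p alone were partly different ones in each line, and Tk1 was the one that was lower in all 3. That call of Tk1 was lost in 1 of 20 alternatives for EY3960, 6 for EY4028 and 4 for EY4174.

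In EY3960, Prim2, Rrm2 and E2f1 were higher (3 of 45, 6.67%, background 9.94%) and Rrm1 and Tk1 lower (2 of 45, background 7.06%). E2f1 was higher by 0.96 ± 0.13 (adjusted p = 0.00026) and Prim2 by 0.60 ± 0.08 (adjusted p = 0.00016). Rrm2 was higher by 0.40 and Rrm1 lower, with a difference of -0.34. The number of members past the adjusted p was 2 to 7 when 1 library was left out, with 7 without N4172 replicate 4 and 2 without EY3960 replicate 1, and it was 3 without EY3960 replicate 2, EY4028 replicate 1 or 2, or N4172 replicate 1. Without N4172 replicate 1, E2f1 passed both thresholds. Of all genes, 2931 of 11492 passed the adjusted p without N4172 replicate 4, against 1977 of 11630 in the main fit.

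In EY4028, Orc6, Prim2, Pold2, Pole, Lig1, Chaf1a and E2f1 were higher (7 of 45, 15.6%, background 10.9%), and Pcna and Tk1 were lower (2 of 45, background 5.83%). E2f1 was higher by 0.76 ± 0.13 (adjusted p = 0.0016), Pole by 0.71 ± 0.11 (adjusted p = 0.00099) and Pold2 by 0.65 ± 0.10 (adjusted p = 0.0011). Pcna differed by -0.36 ± 0.08 (adjusted p = 0.0069). Without EY4028 replicate 1 or 2 the line has 1 library, so a test of it then rests on the spread of the other lines. The calls listed above rested on both libraries of EY4028. The number of members was 5 without N4172 replicate 1, where 1395 of 11486 genes passed. It was 11 without N4172 replicate 4, where 2943 of 11492 genes passed, against 1946 of 11630 in the main fit.

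In EY4174, Mcm3, Mcm5, Pold2, Pole, Lig1 and Chaf1a were higher (6 of 45, 13.3%, background 7.32%), and Prim2 and Tk1 were lower (2 of 45, background 8.26%). Pold2 was higher by 0.75 ± 0.10 (adjusted p = 0.00050), Lig1 by 0.66 ± 0.12 (adjusted p = 0.0028) and Mcm3 by 0.57 ± 0.11 (adjusted p = 0.0037). E2f1, which was higher in the other EY lines, differed here by 0.17 ± 0.13 (adjusted p = 0.36). The lower level of Prim2 (-0.35, adjusted p = 0.0059) lost its call in 11 of 20 alternatives. The number of members was 2 without EY4174 replicate 1, 1 without EY4174 replicate 2 and 11 without N4172 replicate 4. Of all genes, 2784 of 11492 passed the adjusted p without N4172 replicate 4, against 1812 of 11630 in the main fit. The comparisons of the 3 lines share the N libraries and are not independent of each other.

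Over the 4 lines, N had the lowest mean in 20 of 45 members (44.4%, against 31.5% of all genes) and the highest in 8 (17.8%, against 26.5%). EY4028 was lowest in 4 members (8.89%, against 11.2%). The median difference from N was 0.06 in EY3960, 0.17 in EY4028 and 0.12 in EY4174, against 0.01, 0.09 and -0.01 over all genes. The relation of the differences to transcript GC content varied by line. Across the 45 members Pearson's r of the difference with GC was 0.32 for EY minus N, -0.04 for EY3960, 0.35 for EY4028 and 0.48 for EY4174, and across 11553 genes it was 0.17, 0.09, 0.12 and 0.26, genes of the same libraries that are not independent points. With GC and length trends removed from each library, the median of the members was 0.10 and Tk1 alone was past the adjusted p. The part of GC in the differences was not tested further.

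**Figure D4:**
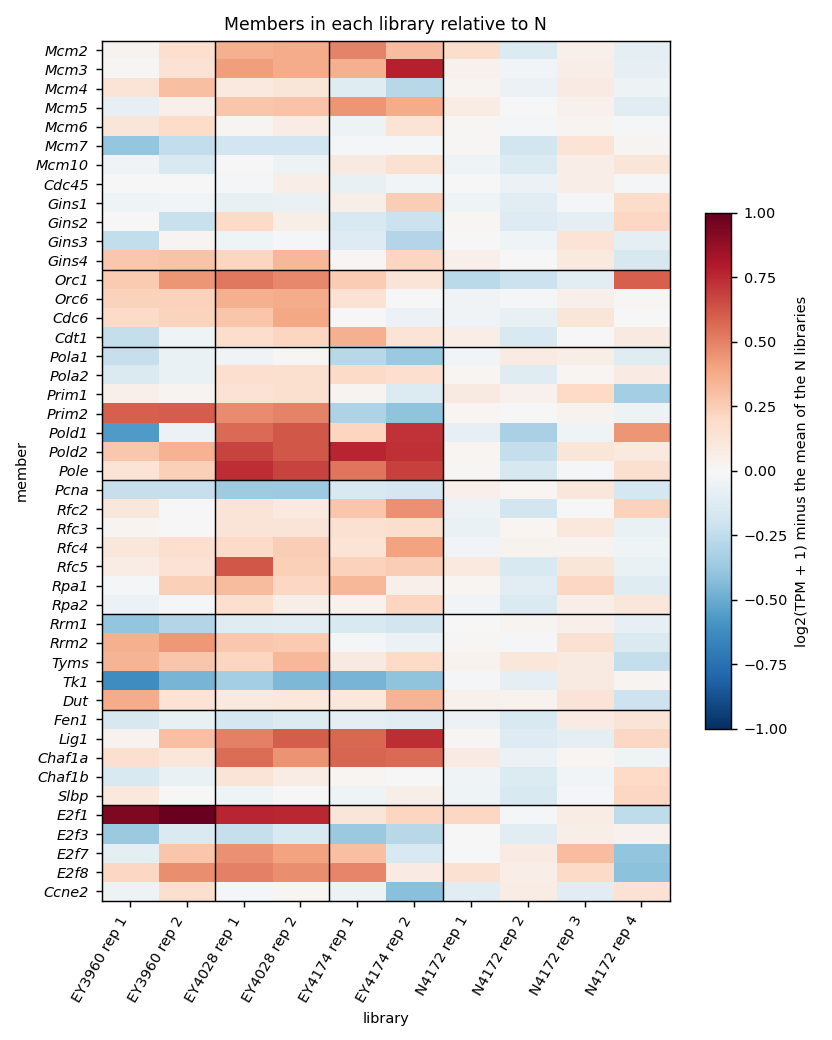
log2(TPM + 1) of the 45 tested members (rows, by role) in the 10 libraries (columns, by line), relative to the mean of the N libraries. Prim2 is red in EY3960 and EY4028 and blue in EY4174, E2f1 is red in EY3960 and EY4028, Pold2 is red in all EY libraries, Tk1 is blue in all of them, and Orc1 is red in N4172 replicate 4.

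Between the 3 EY lines, 0 members passed both thresholds (background 5.12%) and 2 passed the adjusted p, Prim2 and E2f1 (4.44%, background 8.55%). Prim2, the large primase subunit, was at 47.4 and 47.8 TPM in EY3960, 43.4 and 44.1 in EY4028, 24.9 and 23.3 in EY4174, and 31.4, 30.9, 31.8 and 30.0 TPM in N. The N libraries lay between EY4174 and the other EY lines, with no overlap of any pair of lines. The largest difference between lines was 0.95 (adjusted p = 4.78e-05), and without EY4174 replicate 1 Prim2 passed both thresholds. Its catalytic partner Prim1 showed no such split, at 57.5, 62.4 and 54.0 TPM in the line means. For E2f1 the largest difference was 0.80 (adjusted p = 0.0089), which passed in 6 of 20 alternatives. The number of members past the adjusted p was 1 without any single library of EY3960 or EY4028 and without EY4174 replicate 2 or N4172 replicate 2 or 3, and was 6 without N4172 replicate 4. Of all genes, 1968 of 11492 passed the adjusted p without N4172 replicate 4, against 994 of 11630 in the main fit. The median of the largest line difference was 0.29 over members and 0.35 over all genes.

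**Figure D5:**
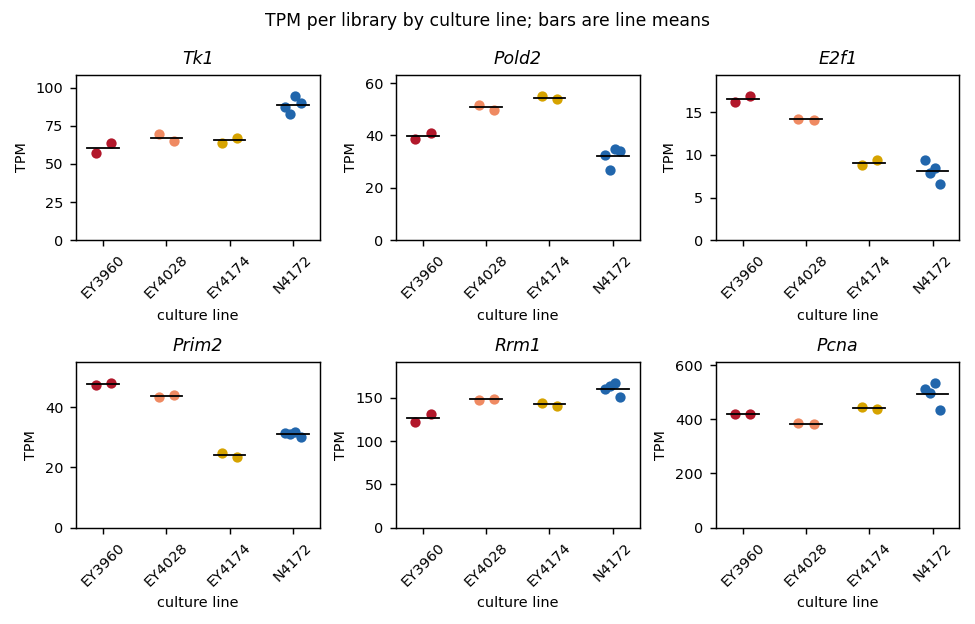
TPM of 6 members in every library (points) by culture line, with line means as bars. Tk1 is lower in all EY libraries (57.4 to 69.8 TPM) than in N (82.6 to 94.5 TPM), Pold2 is higher in all of them, E2f1 is near 9 TPM in EY4174 as in N, Prim2 is lowest in EY4174, Rrm1 is below N throughout and Pcna overlaps N through 1 N library.

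The wider pathway was read from gene lists that hold no member. Of 38 other replication factors 0 were called, with a median difference of -0.03 and 17 higher. Of 19 other nucleotide supply genes 0 were called, with a median of 0.19 and 17 higher. Among 25 other E2F targets 0 were called (median -0.02, 12 higher), and among 28 mitotic genes 0 were called (median -0.08, 10 higher). Over all genes tested 3.55% were called. At an unadjusted p under 0.05 these lists held 13 (34.2%), 6 (31.6%), 5 (20%) and 11 genes (39.3%), against 37.5% of all genes. On the adjusted p alone, the lists held 2, 2, 1 and 0 genes higher in EY (background 6.84%). They held 1, 0, 1 and 2 genes lower in EY (background 5%).

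Of 31 RB and E2F regulators 1 was called (3.23%, near the 3.55% of all genes). Ccnd2, a D-type cyclin that activates the kinases acting on RB, averaged 52.9 ± 9.7 TPM in EY and 181 ± 84 in N, a difference of -1.65 ± 0.27 (adjusted p = 0.0020). All EY libraries were below all N libraries. In single lines Ccnd2 passed the adjusted p in EY3960 (0.0078) but not in EY4028 (0.024) or EY4174 (0.025). Its call was not followed through the alternatives. The list's median was 0.07 with 18 genes higher. On the adjusted p alone, 2 of the 31 were higher in EY (background 6.84%) and Ccnd2 was the 1 lower (background 5%). Cdkn2a was higher by 0.95 (adjusted p = 9.9e-05) and Mybl2 by 0.68 (adjusted p = 0.00054), each with all EY above all N libraries.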

How the data were processed

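Poly(A) RNA of 10 primary culture libraries was sequenced by the authors, who deposited a table of TPM with gene symbols. The submitters' processing notes name STAR 2.7.9, SAMtools 1.7 and HTSeq 0.13.5 with GRCm39, and the paper also describes pseudoalignment with Kallisto for enrichment. Which step made the TPM is not given in the sources used here, and the read depth is unknown. Columns summed to 998358 to 998951, 20 symbols had been turned into dates, and each row was above 0 in at least 6 libraries. Samples were grouped by genotype and line from their titles. The planned fit was limma 3.58.1 (R 4.3.3; trend and robust options, two-sided) on TPM as log2 values with a pseudocount of 1, and a gene was tested where 4 or more libraries reached 1 TPM. A gene was called at an adjusted p under 0.01 and over 1 on the log2 scale. The code was tested on simulated data. All 46 members are named with a level, and statistics are given for called members, for the member with the smallest adjusted p in each role, for members with an unadjusted p under 0.05 and where a comparison passed. The last 2 were added after values were seen. Genes of the wider lists are named only if called, besides cell type markers. Rfc1, Cdkn2a and Mybl2 were named after their values were seen. Members and lists were chosen with earlier results of these data known. GC content and length came from GENCODE M21, and promoters from RefSeq. Alternatives covered pseudocount, filter, scaling, moderation, line as block, replicate block, left-out lines and libraries and, chosen after seeing the data, GC and length.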

Additional observations from a re-analysis of the deposited data

Results flagged for a closer look

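Orc1 was at 17.0 TPM in N4172 replicate 4, while the other N libraries were at 8.89 to 10.02 TPM, a gap beyond Dixon's limit for 4 samples. Rfc5 was at 77.8 TPM in EY4028 replicate 1, while the other EY libraries were at 52.8 to 59.8 TPM. These were 2 of 92 groups of values examined, where chance alone flags about 1 in 20 (4.6 groups).

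Prim2 differed between the EY lines (limma, adjusted p = 4.78e-05), being higher than N by 0.60 in EY3960 and 0.48 in EY4028, with a difference of -0.35 in EY4174. E2f1 also differed between the EY lines (adjusted p = 0.0089), at 0.96, 0.76 and 0.17 from N.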

How the results depend on the processing

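Limits lie in the design: N is 1 line, read depth is unknown and a line has 2 libraries. The count of members past both thresholds between EY and N was 0 in all 25 alternatives. Some of these called few genes at all, 2 of 11630 with line means and 173 of 11362 with the replicate block. The count past the adjusted p alone was 2, where 1377 of all 11630 genes passed. Figures over all genes tested follow in parentheses. It was 0 with line as a random block (248 of 11630) and with line means (2 of 11630). It was also 0 with the replicate block on sample numbers 1 and 2 (284 of 11362, N4172 replicates 3 and 4 left out). It was 7 without line EY3960 (1479 of 11339), 1 without EY4028 (767 of 11288) and 4 without EY4174 (1670 of 11469). With GC and length trends removed it was 1 (1572 of 11553). Without 1 library it was 1 to 4: 1 without EY4028 replicate 1 or 2 or N4172 replicate 1, 2 or 3, and 4 without EY3960 replicate 1 or N4172 replicate 4. The median difference of 0.17 was 0.086 without line EY4028 and 0.0996 with GC and length trends removed.

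Against N, EY3960 had 1 member past both thresholds with a pseudocount of 0.1, and 0 to 1 without 1 library. Its count past the adjusted p was 3 with limma's moderation without trend and robust options and 2 to 7 without 1 library. The count was 0 to 11 without 1 library for EY4028, and 4 with the replicate block (none of them lower in EY) and 1 to 11 without 1 library for EY4174. Between the EY lines the count was 1 with a pseudocount of 0.1, no filter, quantile normalization, mitochondrial genes left out or that plainer moderation, and 1 to 6 without 1 library (6 without N4172 replicate 4), with 0 to 1 past both thresholds. Over all genes, 1811 of 11630 passed for EY3960 with the plainer moderation and 1590 of 11362 for EY4174 with the replicate block. Between the EY lines, 897 to 1115 genes passed in the named settings with a count of 1, of 11630 to 18586 tested. A lone library of a line is taken to vary like the other lines. Among the replicate 1 libraries of the 4 lines, correlations of the deviations from the line means ran from -0.15 to 0.05. These correlations run over all genes, so they cannot show whether same-numbered samples shared a preparation that affected some genes. Of the 45 members, 13 changed sign in at least 1 alternative, and all of these differed by at most 0.0998. The causes were not tested.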
